A study of Mus musculus with 6 samples.

Results

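The genes described here are the matrix metalloproteinases (MMPs), the ADAMTS proteases and the tissue inhibitors of metalloproteinases (TIMPs) of mouse bone endothelial cell preparations at 12 weeks of age. Members were the rows of the count table whose current protein-coding symbol began with Mmp and a digit, or was Adamts or Timp followed by a number only, with Mmp8 and Mmp9 left out by the rule. The rule found 45 of the 37991 genes in the table, which were 4 TIMPs, 21 MMPs, 19 ADAMTS genes and Mmp24os1, a separate gene on the strand opposite Mmp24 that matches the symbol pattern and is not an MMP.

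RNA was compared between 3 female and 3 male libraries from c57/Bl6 mice. The labels describe cells freshly taken from the tibia and purified by their endomucin, a sialomucin of capillary and venous endothelium, and they give no treatment or transgene. No source used here says how many animals stand behind a library, so p-values measure the spread between these libraries, which may in part be technical. Total counts were 47678806 to 58325745 per library, and 3 counts correspond to 0.0477 to 0.0639 CPM (counts scaled to a common library total), a floor that covers counting error only.

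MMPs are zinc-dependent endopeptidases that are secreted or membrane-bound and made as latent proenzymes. They cut collagens, gelatin, laminins and other matrix proteins. ADAMTS enzymes are secreted relatives that carry thrombospondin repeats and cut proteoglycans, procollagens or von Willebrand factor, and TIMPs bind the active site of MMPs and of some ADAMTS enzymes. In bone these enzymes are known for cartilage and matrix removal during growth and for the remodelling of vessel walls and basement membranes.

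The libraries were not purely endothelial, and markers of neutrophils, macrophages and B cells each summed higher than the endothelial ones. The 16 endothelial markers summed to 524, 379 and 543 CPM in females and 297, 221 and 341 CPM in males, and none was at 0. That was 0.0222 to 0.0565% of all counts. Over the 6 libraries, macrophage markers summed to 3154 to 5099 CPM and B cell markers to 2392 to 2862 CPM. Sums of different genes do not give the shares of cells. The 14 neutrophil markers summed to 18730.1, 22847 and 21982 CPM in females and 31713, 43697 and 38813 CPM in males, which was 2.02 to 4.37% of all counts. All 16 endothelial markers had lower values in males and 12 of them passed an unadjusted p of 0.05, while 13 of the 14 neutrophil markers had higher values in males and 10 passed. Of all genes, 50.2% had a lower value in males, 4.76% passed that p with higher female values and 5.03% with higher male values. Because these are bulk libraries, fewer cells of a type and less RNA per cell cannot be told apart. Male replicate 3 stood apart, since without it edgeR called 96 genes of the table in place of 8, and 0 members in both cases.

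Promoter windows of 5 members are printed because they show the main sequence difference within the set, between the MMP genes that lie side by side on chromosome 9 and the genes elsewhere. Each window runs from 250 bases before to 50 bases after a RefSeq start site (GRCm38.p6), 5′ to 3′ on the strand of the gene. Capitals mark a TGANTCA motif, a TATAAA motif (the letters of a TATA box) or a GGGCGG motif (the letters of a GC box). TGANTCA allows any base N and is a loose form of the AP-1 consensus, whose middle base is C or G. Each was searched on both strands, so that GGGCGG on the other strand reads CCGCCC. Counted from the annotated start, at 0, the TATAAA motif began at -16 in Mmp13, -7 in Mmp3, -32 in Adamts1 and 4 in Mmp12, where it lay after the start. The first 3 are from the chromosome 9 cluster, and the other 2 belong to the ADAMTS genes with the smallest p-values between the sexes.
Mmp13, chr9:7272264-7272563, plus strand: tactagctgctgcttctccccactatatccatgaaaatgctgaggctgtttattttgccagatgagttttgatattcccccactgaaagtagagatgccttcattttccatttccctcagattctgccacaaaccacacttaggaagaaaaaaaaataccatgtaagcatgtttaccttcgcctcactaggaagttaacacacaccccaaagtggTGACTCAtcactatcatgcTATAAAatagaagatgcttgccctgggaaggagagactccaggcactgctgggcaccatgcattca
Mmp12, chr9:7347124-7347423, plus strand: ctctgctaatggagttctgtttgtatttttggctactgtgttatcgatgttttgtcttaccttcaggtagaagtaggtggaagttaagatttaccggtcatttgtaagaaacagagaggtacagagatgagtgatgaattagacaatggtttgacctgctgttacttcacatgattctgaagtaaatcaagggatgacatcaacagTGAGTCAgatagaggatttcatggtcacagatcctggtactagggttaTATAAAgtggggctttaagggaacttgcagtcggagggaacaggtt
Mmp3, chr9:7445572-7445871, plus strand: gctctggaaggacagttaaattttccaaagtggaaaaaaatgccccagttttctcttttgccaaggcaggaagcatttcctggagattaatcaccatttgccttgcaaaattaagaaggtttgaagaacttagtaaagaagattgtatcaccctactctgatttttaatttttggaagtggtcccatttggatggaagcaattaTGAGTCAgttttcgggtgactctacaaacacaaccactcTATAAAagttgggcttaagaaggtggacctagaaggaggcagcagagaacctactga
Adamts1, chr16:85803064-85803363, minus strand: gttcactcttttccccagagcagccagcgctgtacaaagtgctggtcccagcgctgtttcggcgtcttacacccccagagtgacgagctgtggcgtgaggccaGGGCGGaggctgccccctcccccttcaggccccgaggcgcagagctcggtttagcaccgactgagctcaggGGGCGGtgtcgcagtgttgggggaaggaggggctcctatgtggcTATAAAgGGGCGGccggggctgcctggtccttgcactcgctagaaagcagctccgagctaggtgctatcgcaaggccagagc
Adamts9, chr6:92943485-92943784, minus strand: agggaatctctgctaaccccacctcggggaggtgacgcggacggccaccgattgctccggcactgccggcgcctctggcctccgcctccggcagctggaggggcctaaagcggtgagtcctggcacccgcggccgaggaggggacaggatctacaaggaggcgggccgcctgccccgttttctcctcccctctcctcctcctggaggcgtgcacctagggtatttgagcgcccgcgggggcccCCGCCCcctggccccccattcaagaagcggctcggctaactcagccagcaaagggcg

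The cluster on chromosome 9 holds 9 members (Mmp13, Mmp12, Mmp1b, Mmp3, Mmp1a, Mmp10, Mmp27, Mmp20 and Mmp7), between 7272514 and 7699587 in GRCm39. RefSeq windows were matched for all 9, and 8 of them held both the TGANTCA and the TATAAA motif in a window, Mmp27 being the exception. The middle base of TGANTCA was A in Mmp20, outside the AP-1 consensus, and C or G in the others. Mmp12 and Mmp7 have 2 windows each, for different start sites, and neither motif was in the other window of Mmp12 (chr9:7344147-7344446) or of Mmp7 (chr9:7692091-7692390). None of the 9 held GGGCGG. Of the 22 members matched elsewhere in the genome, none held TGANTCA, 2 held TATAAA (Adamts1 and Mmp21) and 18 held GGGCGG. By window, not by gene, among all 32851 windows of the same length, 7.81% held TGANTCA, 13.6% held TATAAA, 1.54% held both and 35.7% held GGGCGG. Neighbouring MMP genes are paralogues, so their windows are not independent, and a match of letters is not a binding site. The shared motifs did not go with a shared level. Mmp13 and Mmp12, with both motifs, had means of 37.3 and 15.1 CPM, whereas Mmp3, Mmp1a, Mmp1b and Mmp7 were at 0 counts in every library, which allows up to 0.0639 CPM in the shallowest library.

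Of the 45 members, 32 had enough counts to be tested and 27 averaged at least 1 CPM over the 6 libraries. Adamts19, Mmp1a, Mmp1b, Mmp3 and Mmp7 had no count in any library. The other 8 untested members were barely detected. Mmp24 had 41 counts in all, spread over the 6 libraries, Adamts16 had 19, and Mmp10, Adamts8, Mmp21, Adamts18, Mmp20 and Adamts20 had 1 to 9 counts each. Of the members grouped here as collagenases, Mmp13 had counts and Mmp1a and Mmp1b were at 0.

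Levels can be compared between genes only per length, and on CPM per kilobase of exon Timp2 stood highest at a mean of 46.0 (libraries 38.6 to 52.9). Adamts13 came next at 19.9 (17.7 to 22.5), and its libraries did not overlap those of Timp2. Mmp13, at 14.0 (7.86 to 18.2), overlapped Adamts13 in range. Mmp24os1 followed at 13.4 (11.4 to 15.4), then Mmp25 at 8.93 (7.22 to 10.8), Mmp14 at 4.63 (3.95 to 6.02) and Adamts2 at 4.30 (2.75 to 5.56). Mmp13 overlapped both of its lower neighbours, and Mmp14 overlapped Adamts2. From Timp3 (2.41) down to Mmp12 (2.09), including Mmp19 and Mmp16, the means differed by less than the ranges of the libraries. The proteoglycanases Adamts5, Adamts1 and Adamts9 were lower in the order, at 1.36, 0.575 and 0.360 CPM per kilobase.

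**Figure D1:**
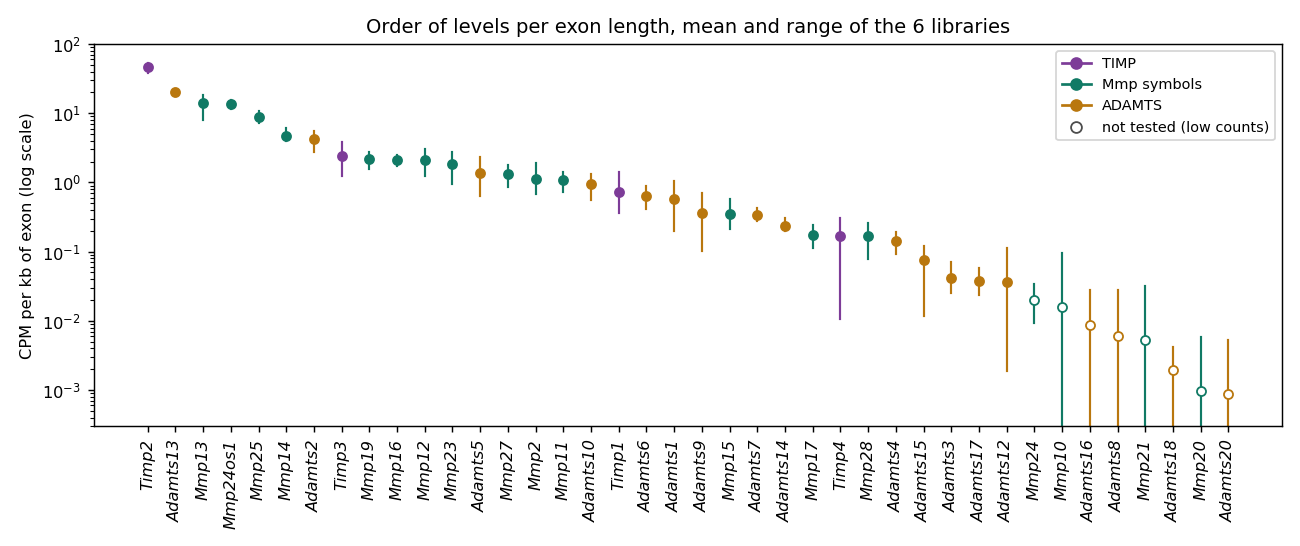
Mean CPM per kilobase of exon over the 6 libraries (points, log axis) for the 40 members with any count, ordered by level and coloured by family, with lines from the lowest to the highest library and open points for members not tested. Timp2 at 46.0 lies above all others, and lines that reach the lower edge belong to genes with 0 counts in a library.

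Among the tested members above the minimum of the filter on low counts in every library, Adamts9, Adamts1 and Adamts5 had the lowest log2 fold changes of males over females. These ADAMTS genes cut proteoglycans. No TIMP and no MMP but Mmp25 passed an unadjusted p of 0.05 in edgeR's fit on sex alone with all 6 libraries. In the quasi-likelihood test of edgeR, adjusted by Benjamini-Hochberg across 19480 genes, 0 of the 32 members passed an adjusted p of 0.05 (adjusted p 0.246 to 0.998), where 0.0411% of all genes passed. At an unadjusted p of 0.05, 4 members were higher in females (12.5%, against 4.76% of all genes) and 1 was higher in males (3.13%, against 5.03%). The 4 were Adamts9, Adamts1, Adamts5 and Adamts12, and the gene higher in males was Mmp25. Single libraries moved these counts, since 7 members were higher in females at that p without female replicate 2 and 2 without female replicate 3. The share of all genes at that p is not given for fits with a library left out. Whether such counts reflect the members or the setting therefore cannot be told. Of the members that passed with all libraries, Adamts9 and Adamts1 passed whichever library was left out, and the others did not. Several TIMPs and MMPs passed in 1 or 2 of the 6 sets of 5 libraries, namely Mmp13 and Mmp12 without female replicate 1, Timp3, Mmp2 and Mmp15 without female replicate 2, Timp1 without female replicate 3, Mmp2 without male replicate 1, Mmp13 without male replicate 2 and Mmp12 without male replicate 3. DESeq2's Wald test, the tool of the study, called 2 members, Adamts9 and Adamts1, both higher in females, where it called 0.726% of all genes in that direction. The median log2 fold change of males over females was -0.12 for the 32 members and -0.00125 for all genes, and for the members it was -0.26 without female replicate 2 and -0.23 without male replicate 3. Of the 32 members, 20 (62.5%) had a lower value in males, against 50.2% of all genes. In 4 members (12.5%, against 7.29% of all genes) every female library lay above every male library, and in 0 members the reverse held (7.25% of all genes), so that 12.5% of members and 14.5% of all genes did not overlap in either direction. The members' count was 2 of 29 with at least 10 counts required in every library, where 14.6% of all genes did not overlap. With a library left out the members' count was 6 to 11, where 18.2 to 32% of all genes did not overlap. Adamts12, Adamts15 and Timp4 exceeded the minimum of the filter on low counts in all 3 female but in 1, 2 and 2 male libraries. The filter asks for 3 libraries of either sex, so their male libraries alone would not have passed.

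**Figure D2:**
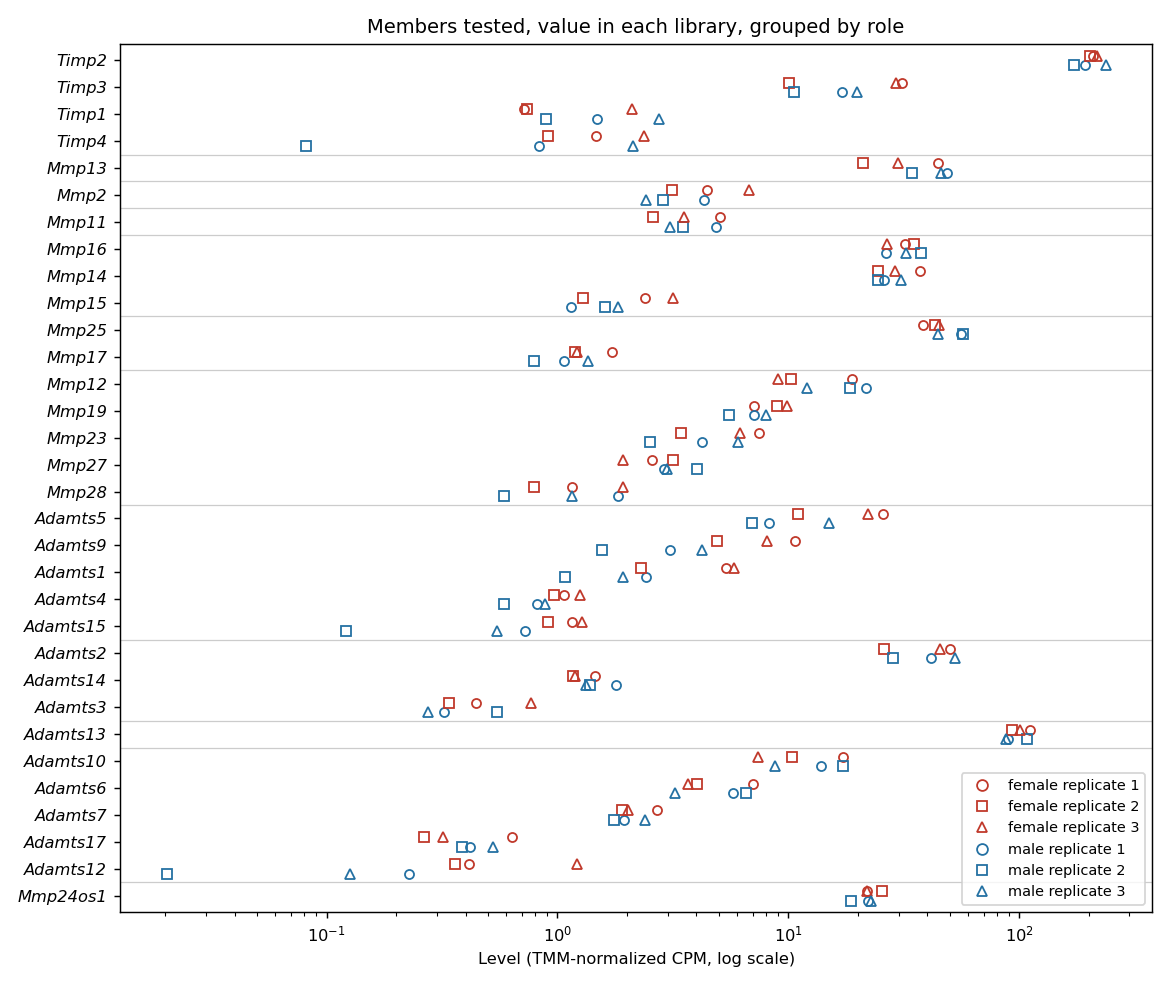
Level of each of the 32 members tested in each library (TMM-normalized CPM, log axis), with females in red, males in blue, and circle, square and triangle for replicates 1, 2 and 3, in blocks by role. The female points of Adamts9, Adamts4, Adamts15 and Adamts12 lie above all of their male points, as do those of 7.29% of all genes. Those of all other members shown, ADAMTS genes such as Adamts1 and Adamts5 included, interleave. The male libraries of Adamts12 and Adamts15 alone would not have passed the filter on low counts.

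The extremes were spread unevenly over the libraries. Male replicate 2 held the lowest value of 14 of the 32 members and female replicate 2 that of 7, while female replicates 1 and 3 held the highest value of 12 and 10 members. The second replicates were also the lowest of their sex in the stromal markers, genes of fibroblastic and mesenchymal cells, whose 10 genes summed to 2631, 1309 and 2769.9 CPM in females and 1541, 1063 and 2163 CPM in males. In 8 of the 9 stromal markers tested the male value was lower, 4 of them at an unadjusted p of 0.05, against 50.2% and 4.76% of all genes. The part of stromal and endothelial RNA in the members' values was not tested.

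**Figure D3:**
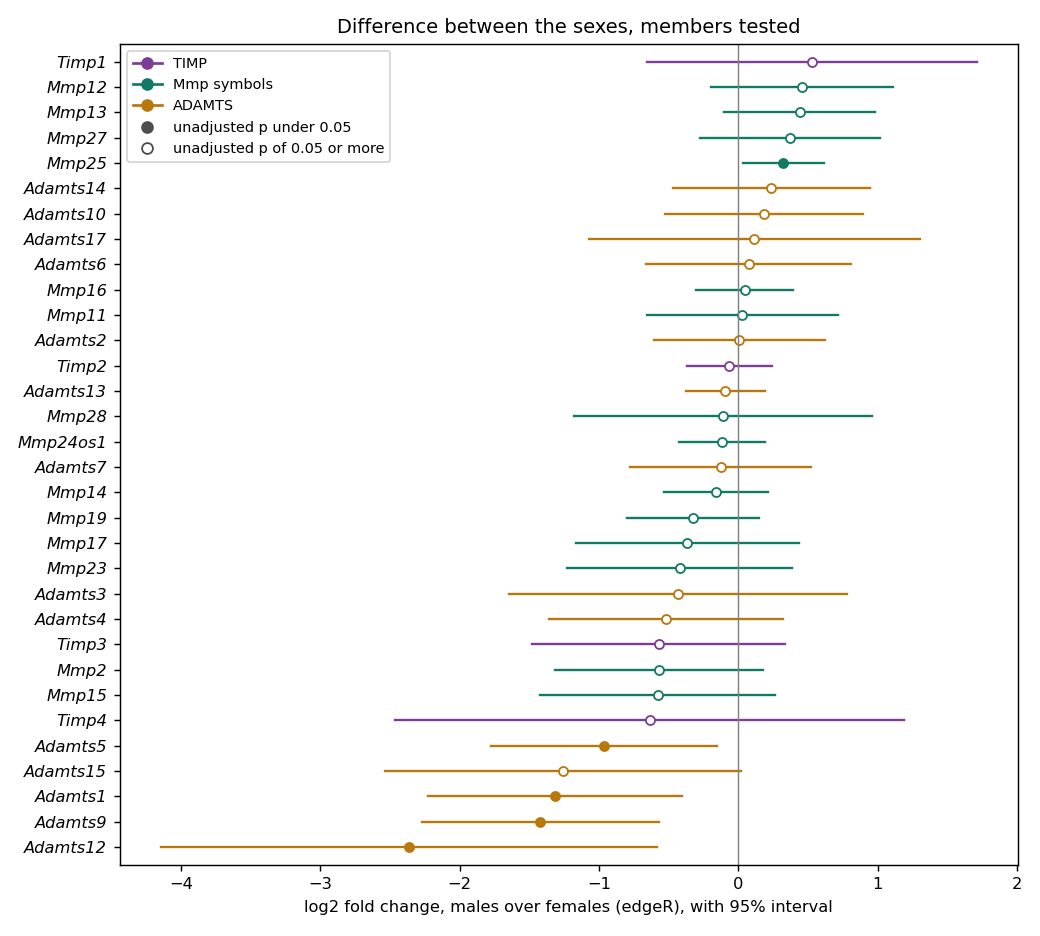
Log2 fold change of males over females for the 32 members tested (edgeR, points) with 95% intervals (lines), ordered by size and coloured by family. Filled points mark the 5 members at an unadjusted p under 0.05, of which 4 are ADAMTS genes lower in males (log2 fold change -2.37 to -0.96) and 1 is Mmp25 (0.32), and none passed adjustment.

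Of the 4 TIMPs, 3 had lower values in males and 1 had a higher value, and none passed an unadjusted p of 0.05 in edgeR's fit on sex alone with all 6 libraries. Timp2, an inhibitor that also takes part in the activation of MMP2 by MMP14, had 209.6, 203 and 217 CPM in females and 193, 172 and 236 CPM in males. The sexes overlapped, and the log2 fold change of -0.07 had a 95% interval of -0.37 to 0.24 (adjusted p 0.911). Timp3, the matrix-bound inhibitor that also acts on ADAMTS enzymes, had 31.0, 10.1 and 29.2 CPM in females and 17.0, 10.5 and 19.8 CPM in males. Both second replicates were low, and the log2 fold change was -0.57 (interval -1.48 to 0.34, adjusted p 0.691). It ran from -0.93 without female replicate 2, at an unadjusted p of 0.00434, to -0.31 without female replicate 1 (p 0.526). Timp1, on chromosome X, had 0.716, 0.738 and 2.11 CPM in females and 1.48, 0.893 and 2.74 CPM in males and was highest in the third replicate of each sex. Its unadjusted p was 0.0389 without female replicate 3. Timp4 had 1.46, 0.908 and 2.36 CPM in females and 0.835, 0.0812 and 2.13 CPM in males, where male replicate 2 was near the floor. The intervals of Timp1 (-0.65 to 1.71) and Timp4 (-2.46 to 1.19) on the log2 scale were wide on both sides of 0. Summed over the 4 inhibitors, the level was 242.8, 214.7 and 251 CPM in females and 213, 184 and 261 CPM in males, so that the sexes overlapped.

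Among the MMPs grouped here as collagenase, gelatinase or stromelysin, Mmp13, the collagenase of hypertrophic cartilage and osteoblasts, had 44.3, 21.0 and 29.8 CPM in females and 48.6, 34.4 and 46.0 CPM in males. Its log2 fold change of 0.44 had an interval of -0.10 to 0.98 (adjusted p 0.597), and female replicate 1 lay among the males. It was 0.77 without female replicate 1 (unadjusted p 0.00353) and 0.21 without female replicate 2 (p 0.341), and the p was 0.0490 without male replicate 2. Mmp2, the gelatinase of the member list, had 4.45, 3.12 and 6.73 CPM in females and 4.31, 2.86 and 2.42 CPM in males. Here the values overlapped too, at a log2 fold change of -0.57 (adjusted p 0.615). With a library left out the log2 fold change of Mmp2 ran from -0.85 to -0.24. Its unadjusted p by edgeR was 0.0427 without female replicate 2, 0.0467 without male replicate 1 and 0.488 without female replicate 3. Mmp11, a stromelysin by name, had 5.06, 2.59 and 3.54 CPM in females and 4.86, 3.49 and 3.06 CPM in males and a log2 fold change of 0.03.

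The membrane-type MMPs cut matrix at the cell surface. Mmp14, the transmembrane member that activates MMP2, had 37.1, 24.3 and 28.9 CPM in females and 26.0, 24.4 and 30.6 CPM in males. Its relative Mmp16 had 32.0, 34.9 and 26.7 CPM in females and 26.5, 37.7 and 32.4 CPM in males. Mmp15 was low, with 2.40, 1.29 and 3.15 CPM in females and 1.14, 1.604 and 1.83 CPM in males. The groups overlapped in all 3, with log2 fold changes of -0.16, 0.04 and -0.58 (adjusted p 0.798, 0.953 and 0.659). The GPI-anchored Mmp17 had 1.72, 1.19 and 1.21 CPM in females and 1.06, 0.792 and 1.35 CPM in males and overlapped between the sexes.

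Mmp25, the other GPI-anchored member and a protease known from leukocytes, had 38.3, 43.0 and 45.0 CPM in females and 56.1, 57.0 and 44.6 CPM in males. Male replicates 1 and 2 were above every female library, and male replicate 3 lay within the female range. The log2 fold change was 0.32 (SE 0.13, interval 0.03 to 0.61, or 1.25-fold), with an unadjusted p of 0.0333 and an adjusted p of 0.454 by edgeR. Its unadjusted p was 0.102 without female replicate 1, 0.0673 without female replicate 2, 0.0997 without male replicate 1 and 0.119 without male replicate 2. Mmp25 no longer passed the unadjusted threshold when libraries were scaled by total counts alone. Neutrophil marker sums were higher in every male library than in every female library, by the values given with the markers, and their part in the level of Mmp25 was not tested.

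The remaining MMPs overlapped between the sexes. Mmp12, the macrophage elastase, had 18.8, 10.3 and 9.05 CPM in females and 21.8, 18.5 and 12.1 CPM in males, at a log2 fold change of 0.45 (adjusted p 0.655). It was 0.86 without female replicate 1 (unadjusted p 0.00626) and 0.26 without female replicate 3 (p 0.406), and the p was 0.0495 without male replicate 3. The 10 macrophage markers all had lower values in males, each at an unadjusted p of 0.05, against 50.2% and 4.76% of all genes. Their sums were 4943, 5099 and 4856 CPM in females and 3556, 3154 and 4209 CPM in males. The part of macrophages in the level of Mmp12 was not tested. Mmp27, the third tested gene of the chromosome 9 cluster, had 2.56, 3.18 and 1.92 CPM in females and 2.90, 4.02 and 2.97 CPM in males. Thus the 3 tested cluster genes Mmp13, Mmp12 and Mmp27 had male values above the female ones on average, at log2 fold changes of 0.44, 0.45 and 0.37, and none passed the test. Mmp19 had 7.13, 8.97 and 9.86 CPM in females and 7.12, 5.52 and 8.03 CPM in males, and 30.6% of its exon bases are shared with the antisense gene Tmem198b. Mmp23 had 7.44, 3.42 and 6.20 CPM in females and 4.21, 2.52 and 6.03 CPM in males. In these 2 genes male replicate 2 was lowest. Epilysin, Mmp28, was near the limit for naming with 1.16, 0.795 and 1.92 CPM in females and 1.82, 0.589 and 1.16 CPM in males. Mmp24os1 had 21.9, 25.5 and 21.9 CPM in females and 22.2, 18.8 and 22.8 CPM in males, and since it shares 42.3% of its exon bases with Mmp24 and the strand setting of the counting is not given in the sources used here, reads of the pair cannot be assigned with certainty. Log2 fold changes were -0.33, -0.42, -0.11 and -0.12 for these 4 genes, with adjusted p-values of 0.657 to 0.962.

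The ADAMTS proteoglycanases cut aggrecan and versican, the large proteoglycans of cartilage and of provisional matrix. All 5 tested members of this role had lower values in males, as had 50.2% of all genes. The male libraries of Adamts15 alone would not have passed the filter on low counts. Adamts9, at chromosome 6 from 92749680 to 92920520 on the minus strand of GRCm39, had 10.7, 4.92 and 8.05 CPM in females and 3.06, 1.56 and 4.24 CPM in males. Every female library was above every male library, and the lowest female value was that of replicate 2. The mean was 7.90 ± 2.91 CPM (SD, n = 3) in females and 2.95 ± 1.34 CPM (SD, n = 3) in males, a 2.68-fold difference (log2 fold change -1.42, SE 0.38, interval -2.27 to -0.57), with an unadjusted p of 0.00385 and an adjusted p of 0.246 by edgeR. DESeq2 gave an adjusted p of 0.00742. Dropping any 1 library gave values of -1.77 to -1.12 on the log2 scale and the unadjusted p stayed at or below 0.0192.

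Adamts1 and Adamts5 are neighbours on chromosome 16, both on the minus strand, at chromosome 16 from 85590579 to 85600009 and chromosome 16 from 85653061 to 85698716 (GRCm39). Adamts1 had 5.39, 2.29 and 5.79 CPM in females and 2.41, 1.08 and 1.92 CPM in males. Female replicate 2 lay just below male replicate 1, and the other 2 female libraries lay above all males. The means were 4.49 ± 1.92 CPM (SD, n = 3) in females and 1.80 ± 0.675 CPM (SD, n = 3) in males, a 2.49-fold difference (log2 fold change -1.32, SE 0.41, interval -2.23 to -0.41), and the adjusted p was 0.326 by edgeR and 0.0463 by DESeq2. Adamts5, an aggrecanase of cartilage, had 25.7, 10.97 and 22.2 CPM in females and 8.24, 6.96 and 15.0 CPM in males. Again female replicate 2 was low, below male replicate 3. The means were 19.6 ± 7.70 CPM (SD, n = 3) in females and 10.1 ± 4.34 CPM (SD, n = 3) in males, and the log2 fold change was -0.96 (SE 0.36, interval -1.77 to -0.15), at an adjusted p of 0.417 by edgeR and 0.0886 by DESeq2. Without female replicate 1, the log2 fold change of Adamts5 was -0.71 and its unadjusted p was 0.104. The p was also above 0.05 without female replicate 3 (0.0678), male replicate 1 (0.0870) or male replicate 2 (0.0719).

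Adamts4 and Adamts15 were under 1 CPM on average, and in both every female library was above every male library. Adamts4 ranged from 0.589 to 1.26 CPM (log2 fold change -0.52, interval -1.36 to 0.32). Adamts15 ranged from 0.122 to 1.28 CPM (log2 fold change -1.26, interval -2.53 to 0.01, unadjusted p 0.0523). Summed over the 7 proteoglycanases, Adamts8 and Adamts20 included, the level was 44.1, 20.1 and 38.6 CPM in females and 15.4, 10.3 and 22.6 CPM in males. The sums overlapped only through female replicate 2 and male replicate 3.

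**Figure D4:**
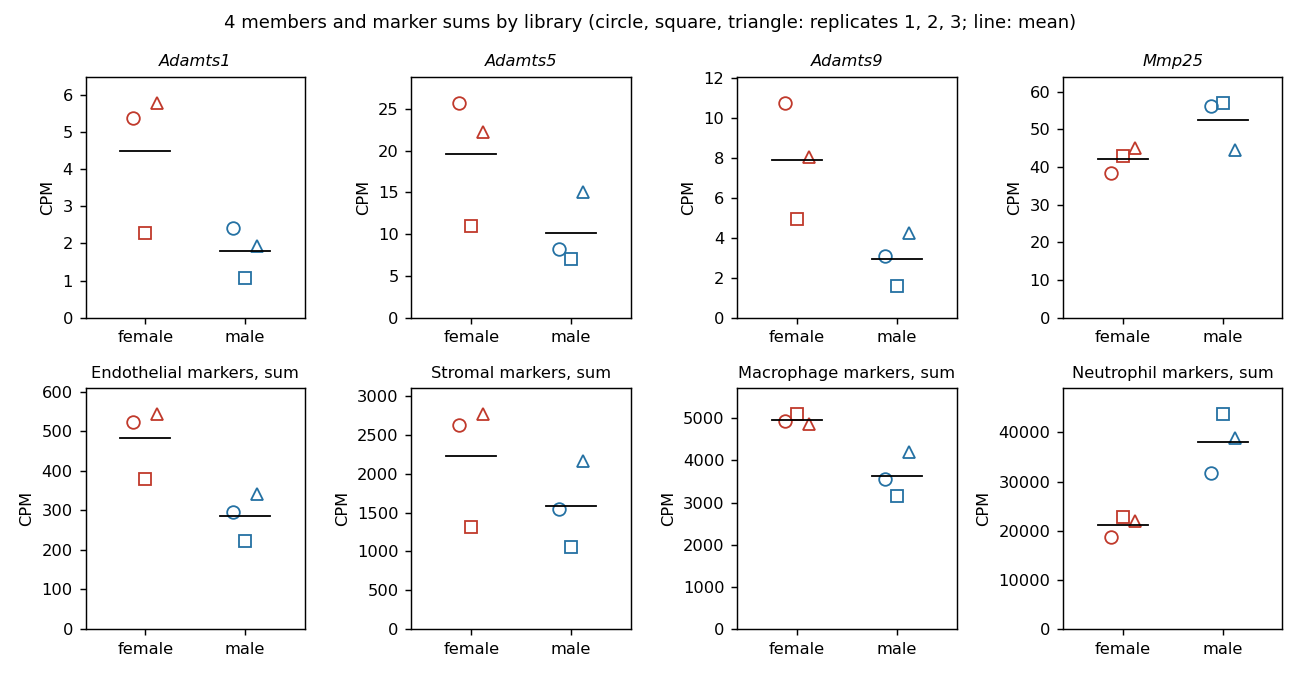
CPM by library of Adamts1, Adamts5, Adamts9 and Mmp25 (upper panels) and summed CPM of endothelial, stromal, macrophage and neutrophil markers (lower panels), with circle, square and triangle for replicates 1, 2 and 3 and a line for the mean of 3 libraries. Female replicate 2 and male replicate 2 are the lowest of their sex in the 3 ADAMTS genes and in the endothelial and stromal sums, and the neutrophil sums of males, from 31713 CPM, lie above those of females.

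The lowest library of each sex was the same in these genes and in several marker sums. Female replicate 2 and male replicate 2 were lowest within their sex in Adamts1, Adamts5 and Adamts9 and in the endothelial, stromal, osteoblast, mural and megakaryocyte sums. Megakaryocyte and platelet markers summed to 185, 46.8 and 111 CPM in females and 74.5, 35.3 and 95.3 CPM in males, and all 6 had lower values in males, none at an unadjusted p of 0.05. The median log2 fold change was -1.02 for the 16 endothelial markers and -0.53 for the 9 stromal markers tested, -0.22 for the 8 osteoblast markers tested, -0.38 for the 6 mural markers tested and -0.78 for the megakaryocyte markers, beside -1.42, -1.32 and -0.96 for the 3 genes. The part of these cell types in the difference was not tested.

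The procollagen N-propeptidases trim fibrillar procollagens, and none of the 3 passed an unadjusted p of 0.05. Adamts2 had 50.3, 26.0 and 45.5 CPM in females and 41.3, 28.5 and 52.6 CPM in males, and its log2 fold change of 0.01 had an interval of -0.61 to 0.62 and was -0.0296 with libraries scaled by total counts alone. Adamts14 had 1.45, 1.17 and 1.19 CPM in females and 1.78, 1.38 and 1.33 CPM in males, at a log2 fold change of 0.24 (interval -0.47 to 0.94). Adamts3 ranged from 0.274 to 0.767 CPM, at a log2 fold change of -0.43 (interval -1.65 to 0.78). Adamts13, which cuts von Willebrand factor and is known from hepatic stellate and endothelial cells, had 111, 92.7 and 100.5 CPM in females and 89.5, 108 and 87.3 CPM in males. Its values overlapped and its interval was narrow, -0.38 to 0.19 on the log2 scale. Vwf, its substrate, had 24.8, 9.65 and 15.6 CPM in females and 13.3, 10.1 and 9.68 CPM in males, and its log2 fold change was -0.60 (adjusted p 0.553).

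The other ADAMTS genes overlapped between the sexes, Adamts12 excepted. Adamts10, linked to fibrillin microfibrils, had 17.3, 10.4 and 7.39 CPM in females and 13.9, 17.2 and 8.79 CPM in males, and Adamts6 had 6.998, 4.03 and 3.69 CPM in females and 5.73, 6.54 and 3.23 CPM in males. The sexes overlapped in both, at log2 fold changes of 0.18 and 0.07. Adamts7 had 2.704, 1.91 and 2.02 CPM in females and 1.94, 1.77 and 2.38 CPM in males and a log2 fold change of -0.13, and Adamts17 ranged from 0.265 to 0.636 CPM. Adamts12, which cuts cartilage oligomeric matrix protein, had 26, 19 and 57 counts in females and 12, 1 and 6 counts in males. Its log2 fold change was -2.37 (SE 0.80, interval -4.15 to -0.59, unadjusted p 0.0142, adjusted p 0.357 by edgeR). The male libraries of Adamts12 alone would not have passed the filter on low counts, so the direction of its difference is not independent of the filter. Without female replicate 3 its log2 fold change was -1.604, at an unadjusted p of 0.0921.

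Regulators, substrates and relatives of these proteases were described from 3 further lists. Of 21 tested regulators of MMP activity (activators, plasminogen system, clearance receptors and inhibitors other than TIMPs), 0 passed edgeR's adjusted test, 5 were higher in males and 3 higher in females at an unadjusted p of 0.05 (5.03% and 4.76% of all genes), and DESeq2 called 2 higher in males and 1 higher in females, where it called 1.27% and 0.726% of all genes. Plaur, the urokinase receptor, had 37.6, 47.9 and 38.98 CPM in females and 61.7, 74.8 and 55.9 CPM in males (log2 fold change 0.63, edgeR adjusted p 0.176, DESeq2 adjusted p 0.0180). Adam8, a membrane protease of leukocytes, had 38.8, 42.7 and 36.7 CPM in females and 63.8, 81.5 and 52.5 CPM in males (log2 fold change 0.74, adjusted p 0.133 and 0.00422). In both genes every male library was above every female library, as in the neutrophil marker sums, whose part was not tested. A2m, a broad protease inhibitor, went the other way with 4.56, 4.58 and 6.50 CPM in females and 1.23, 2.66 and 1.81 CPM in males (log2 fold change -1.45, adjusted p 0.158 and 0.00127). Lrp1, an endocytic receptor that clears MMPs and TIMPs, had 261, 215 and 232 CPM in females and 197, 126 and 173 CPM in males, without overlap between the sexes. Serpine2, a serine protease inhibitor, had 141, 81.8 and 155 CPM in females and 182, 154 and 208 CPM in males, with overlap. The list's median log2 fold change was -0.05.

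Of the 23 tested substrates, 22 had a lower value in males (against 50.2% of all genes), with a median log2 fold change of -0.58. None passed edgeR's adjusted test, 9 passed an unadjusted p of 0.05, all lower in males (4.76% of all genes), and DESeq2 called 3, all higher in females (0.726% of all genes). Col4a2, a chain of type IV collagen, had 59.8, 33.8 and 55.2 CPM in females and 27.4, 16.3 and 32.0 CPM in males (log2 fold change -0.98, adjusted p 0.269 by edgeR and 0.0123 by DESeq2). Col4a1, its partner chain, had 81.8, 40.9 and 65.6 CPM in females and 38.5, 25.4 and 42.4 CPM in males (log2 fold change -0.83, adjusted p 0.336 and 0.0419). Nid1, the linker nidogen, had 40.9, 24.1 and 46.3 CPM in females and 21.4, 17.0 and 25.3 CPM in males (log2 fold change -0.80, adjusted p 0.284 and 0.0381). Female replicate 2 was the lowest female library in all 3, as in Adamts1, Adamts5 and Adamts9. Hspg2, the basement membrane proteoglycan perlecan, had 30.8, 14.7 and 33.3 CPM in females and 14.4, 5.70 and 14.9 CPM in males, with overlap (log2 fold change -1.17, adjusted p 0.383 and 0.359). Fbn1, the microfibril protein fibrillin, had 48.1, 26.3 and 45.0 CPM in females and 29.0, 15.0 and 27.0 CPM in males, with overlap (log2 fold change -0.75, adjusted p 0.422 and 0.129). Endothelial, mural and stromal cells are known sources of such proteins. Endothelial marker sums were lower in every male library than in every female library. Mural markers summed to 48.3, 38.8 and 64.3 CPM in females and 47.2, 32.0 and 42.2 CPM in males, with overlap, and 2 of the 6 tested had higher and 4 lower values in males, 1 in each direction at an unadjusted p of 0.05. Stromal markers, of cells that make fibrillar matrix, had a lower male value in 8 of 9, at a median log2 fold change of -0.53. The part of these cell types was not tested.

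Of 6 tested ADAMTS-like genes and papilin, which lack protease activity, 0 passed edgeR's adjusted test, 2 were higher in females at an unadjusted p of 0.05 (4.76% of all genes) and DESeq2 called 1, higher in females (0.726% of all genes). That gene, Thsd4, a fibrillin-associated ADAMTS-like protein, had 12.9, 8.31 and 9.93 CPM in females and 4.52, 6.31 and 4.39 CPM in males, with every female library above every male library (log2 fold change -1.03, adjusted p 0.166 by edgeR and 0.00274 by DESeq2). The other was Adamtsl3, with 6.39, 1.99 and 3.94 CPM in females and 1.99, 0.365 and 1.90 CPM in males and an adjusted p of 0.429.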

How the data were processed

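The deposited table holds raw counts of reads per gene for 6 libraries of 12-week bone endothelial cells, made by the authors. The sources differ on how: the submitters' processing notes list TopHat2 2.0.11, featureCounts, mm9 and NCBIM37, whereas the study's methods describe STAR and GRCm39, and the annotation release and strand setting are not given in the sources used here. The labels and the methods also differ on the bones, the library kit and the read length. Gene IDs of the table matched GENCODE M39 (GRCm39) for 31073 of 37991 rows, and symbols, exon lengths and gene coordinates come from there. Promoter windows come from RefSeq (GRCm38.p6), matched for 31 members, and no protein sequences were used here.

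Genes were filtered with filterByExpr by sex, scaled by TMM and tested with edgeR 4.0.16 (R 4.3.3, robust quasi-likelihood fit on sex), and p-values were adjusted over 19480 genes at a threshold of 0.05. SEs are the fitted log2 fold change over the square root of F. CPM values use TMM factors and per-kilobase levels divide by the union of exons. DESeq2 1.42.0 (Wald test), other scalings and filters, the replicate number as a block, and each library left out in turn were alternatives. Members were named with a value in every library where their mean was at least 1 CPM or where a fit called them, and pathway genes where a fit called them, at most the 5 with the smallest p in each list and direction. Outside that rule, Adamts12 was given in full for its unadjusted p and Vwf as the substrate of Adamts13, both chosen after their values were seen. Members, lists and tests were chosen with earlier results of these data known. No pair of libraries agreed within sampling noise. Of the members, 14 share exon bases with another gene of the table.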

Additional observations from a re-analysis of the deposited data

How the results depend on the processing

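The number of members called was 0 in edgeR under every scaling, filter and left-out library tried, 2 with DESeq2's Wald test (Adamts9, adjusted p 0.00742, and Adamts1, 0.0463) and 3 with the replicate block (Adamts9, adjusted p 0.00818, Adamts1, 0.0277, and Adamts5, 0.0354), where 2.2% of all genes were called. Same-numbered libraries correlated at 0.194, 0.0402 and 0.298 over genes, and male replicate 2 correlated best with female replicate 1, so the numbers were not taken to pair the samples. With the block, 9 of 32 members passed an unadjusted p of 0.05, as did 14.1% of all genes (Mmp13, unadjusted p 0.00248, Mmp12, 0.0103, Timp3, 0.0189, and Adamts15, 0.0161, beside the 5 without it), and 5 regulators, 7 substrates and 2 ADAMTS-like genes were called, Lrp1, Serpine2, Hspg2, Fbn1 and Adamtsl3 among those the other fits did not call. DESeq2 called 3 regulators, 3 substrates and 1 ADAMTS-like gene, and 1 regulator was called with no filter on low counts and 1 without male replicate 3. Members without overlap between the sexes numbered 2 of 29 with at least 10 counts in every library, where 14.6% of all genes did not overlap. They numbered 6 to 11 with a library left out (9 and 11 without female replicates 1 and 2, 7 and 10 without male replicates 2 and 3). The shares of all genes without overlap in these 4 fits with a library left out were 28.1, 23, 18.2 and 32%, against 14.5% with all libraries. The median log2 fold change ran from -0.26 (without female replicate 2) to -0.0901 with a library left out, and was -0.23 without male replicate 3, where 96 genes of the table were called in place of 8. The sign of 22 of the 32 members held in every setting, and the other 10 were called in none. With a library left out their log2 fold changes ran from -0.20 to 0.0338 for Timp2, -0.19 to 0.32 for Mmp11, -0.29 to 0.0277 for Mmp14, -0.0804 to 0.16 for Mmp16, -0.56 to 0.28 for Mmp28, -0.23 to 0.21 for Adamts2, -0.13 to 0.43 for Adamts6, -0.26 to 0.0533 for Adamts7, -0.0613 to 0.59 for Adamts10 and -0.12 to 0.61 for Adamts17, and that of Adamts2 was -0.0296 with total counts alone. Causes were not tested. The 13 untested members had few or no counts, and whether depth limits them or the members under 1 CPM was not tested.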
